A study of Rattus norvegicus with 16 samples.

Results

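Oltipraz (OLT) is a dithiolethione, a sulphur heterocycle, and its ring bears a methyl and a pyrazinyl substituent. It was compared here with sucrose vehicle in rat liver, on 4 OLT arrays and 4 vehicle arrays chosen by their titles, or 8 of the 16 arrays of the study. Male Fischer F344 rats, 6 weeks old on arrival, received OLT at 0.3 mmol/kg or saturated sucrose every other day for 5 days and were killed 24 h past the third dose. The other 8 arrays were of rats given the unsubstituted dithiolethione D3T or its tert-butyl analogue TBD at the same dose and times. The study text gives the route as gavage, whereas the sample protocols speak of treated diet. The vehicle arrays are titled as untreated, and their protocol names sucrose. Total liver RNA was labelled with biotin and read on 1-colour arrays, and each value is a log2 GCRMA expression value, so a difference of 1 is a doubling. The array readings are of whole liver, and hepatocyte transcripts led them: albumin (Alb) read 15.57, 15.77, 15.52 and 15.80 on the OLT arrays and 15.39, 15.38, 15.40 and 15.46 on the vehicle arrays.

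Dithiolethiones are known to modify cysteines of KEAP1, the protein that holds back the transcription factor NRF2. NRF2 then binds antioxidant response elements before genes of glutathione transferases, quinone reductase and other conjugating enzymes. Oltipraz is best known as a chemopreventive agent against aflatoxin, whose reactive epoxide is conjugated by alpha class glutathione transferases and whose dialdehyde is reduced by Akr7a3. Separately, the xenobiotic receptors CAR and PXR control cytochromes P450 of the 2B and 3A families, and the aryl hydrocarbon receptor (AhR) controls those of the 1A family.

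The 4 OLT arrays had medians of 3.28 to 3.54 and the 4 vehicle arrays of 3.27 to 3.58 over all probe sets. Replicates correlated at 0.979 to 0.991 among OLT arrays and at 0.984 to 0.995 among vehicle arrays (Pearson's r of pairs of arrays over the 5323 tested probe sets, given as a description). OLT replicate 1 stood apart on the second principal component, at -21.7, with the other OLT arrays at -12.6 to 8.55 and the vehicle arrays at -1.81 to 14.1. The OLT and vehicle arrays did not overlap on the first component, which held 39.9% of the variance. Of 5323 probe sets tested, 600 (11.3%) passed a limma adjusted p under 0.05, 180 higher and 420 lower with OLT. The share of higher calls, 30% here, was 46.5% after renewed quantile normalization and 41.8% after centring on the array medians. OLT and vehicle did not overlap at 781 probe sets (14.7%), OLT lying above at 260 and below at 521. Among 3104 genes, each read on its brightest tested probe set, 81 (2.61%) rose and 277 (8.92%) fell, and the shares in parentheses are the background for the counts that follow. The median difference over all tested genes was -0.03, and the count of called probe sets lay between 422 without vehicle replicate 4 and 693 without vehicle replicate 1.

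Genes of glutathione conjugation rose with OLT. Of 15 glutathione transferases tested 8 rose and 0 fell, with a median difference of 0.65. The alpha class enzyme Gsta3 read 11.47, 9.08, 9.80 and 10.79 on the OLT arrays, against 3.31, 2.98, 3.25 and 3.27 on the vehicle arrays. All vehicle values lay under the medians of their arrays, so the difference of 7.08 ± 0.45 (SE, adjusted p = 6.09e-07) has a poorly measured base, and averaging its probe sets gave 4.23. Gsta1, of the same class and already bright without treatment, read 12.66, 12.40, 12.62 and 12.58 with OLT, against 11.87, 11.88, 11.46 and 11.65 with vehicle (0.85 ± 0.16, adjusted p = 0.00324). The mu class gene Gstm1 rose by 0.72 ± 0.11 and the theta class gene Gstt2 by 0.97 ± 0.19 (adjusted p = 0.00127 and 0.00455), the second by 0.61 with its probe sets averaged. The OLT and vehicle arrays of these 4 genes did not overlap.

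The pi class gene Gstp1, scarce in normal adult rat liver, was the most variable of the family. It read 9.36, 6.61, 8.92 and 8.43 on the OLT arrays, against 6.33, 6.14, 6.04 and 6.02 on the vehicle arrays. OLT replicate 2 was thus close to the highest vehicle array, and the other OLT arrays lay well above it. The difference of 2.20 ± 0.59 passed (adjusted p = 0.0252), but not without OLT replicates 1, 3 or 4 or vehicle replicates 2, 3 or 4 (adjusted p up to 0.0751). Nor did it pass after centring on the array medians (2.22, adjusted p = 0.0582), without OLT replicate 1 and TBD replicate 4 (1.85, adjusted p = 0.0517) or with its probe sets averaged (1.85, adjusted p = 0.153). The count of transferases that rose was 5 without OLT replicate 4 or vehicle replicate 2.

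Enzymes that act on aldehydes and epoxides followed. Akr7a3, which reduces aflatoxin dialdehyde, read 12.76, 11.01, 12.65 and 12.35 with OLT, against 8.37, 8.48, 8.43 and 8.56 with vehicle, a difference of 3.73 ± 0.32 (adjusted p = 1.22e-05). Microsomal epoxide hydrolase Ephx1 read 13.13, 12.49, 12.90 and 13.11, against 11.17, 11.12, 11.34 and 11.15 with vehicle (1.71 ± 0.19, adjusted p = 8.54e-05). The retinaldehyde dehydrogenase Aldh1a1 read 12.07, 10.63, 11.83 and 11.86 with OLT, against 9.53, 10.46, 9.60 and 9.98 with vehicle (1.71 ± 0.32, adjusted p = 0.00324). Its lowest OLT array, replicate 2, lay just above its highest vehicle array. Of the 16 genes on the list of aldehyde, quinone and epoxide metabolism 4 rose and 1 fell, and 0 fell without OLT replicates 2 or 3 or vehicle replicate 4, while 3 fell without OLT replicate 1. The quinone reductase Nqo1, a classic NRF2 target, read 7.53, 5.19, 7.03 and 6.36 with OLT, against 4.77, 4.30, 4.39 and 4.02 with vehicle. Its groups did not overlap, yet the difference of 2.16 ± 0.69 missed the threshold (adjusted p = 0.0581). It passed when fitted on the 8 arrays alone (adjusted p = 0.0178), with an intensity trend in the prior (0.0483) and without OLT replicate 2 (2.60, 0.0375). It also passed with array weights (0.01), but their estimation did not converge and gave vehicle replicate 3 a weight of 19.4.

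Glutathione synthesis and the antioxidant genes gave no calls. Of 21 genes for glutathione, thioredoxin and antioxidant functions 0 rose and 0 fell by limma at adjusted p under 0.05 and 1, catalase (Cat), had an unadjusted p under it, with a median of -0.00 and single differences from -0.70 to 0.94. The catalytic subunit of glutamate-cysteine ligase, Gclc, read 9.76, 7.81, 8.13 and 8.29 with OLT, against 7.44, 7.30, 7.43 and 8.07 with vehicle. Its modifier subunit Gclm read 11.20, 9.85, 10.17 and 9.94 with OLT, against 9.73, 9.80, 9.68 and 9.95 with vehicle. For both genes the high OLT value was that of replicate 1, and without it and TBD replicate 4 the differences of 0.94 and 0.50 were 0.52 and 0.20. Of 4 genes that supply NADPH, the transketolase Tkt rose, from the pentose phosphate pathway: it read 10.32, 9.79, 9.96 and 10.42 with OLT, against 8.69, 8.49, 8.39 and 9.36 with vehicle (1.39 ± 0.32, adjusted p = 0.0119).

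**Figure D1:**
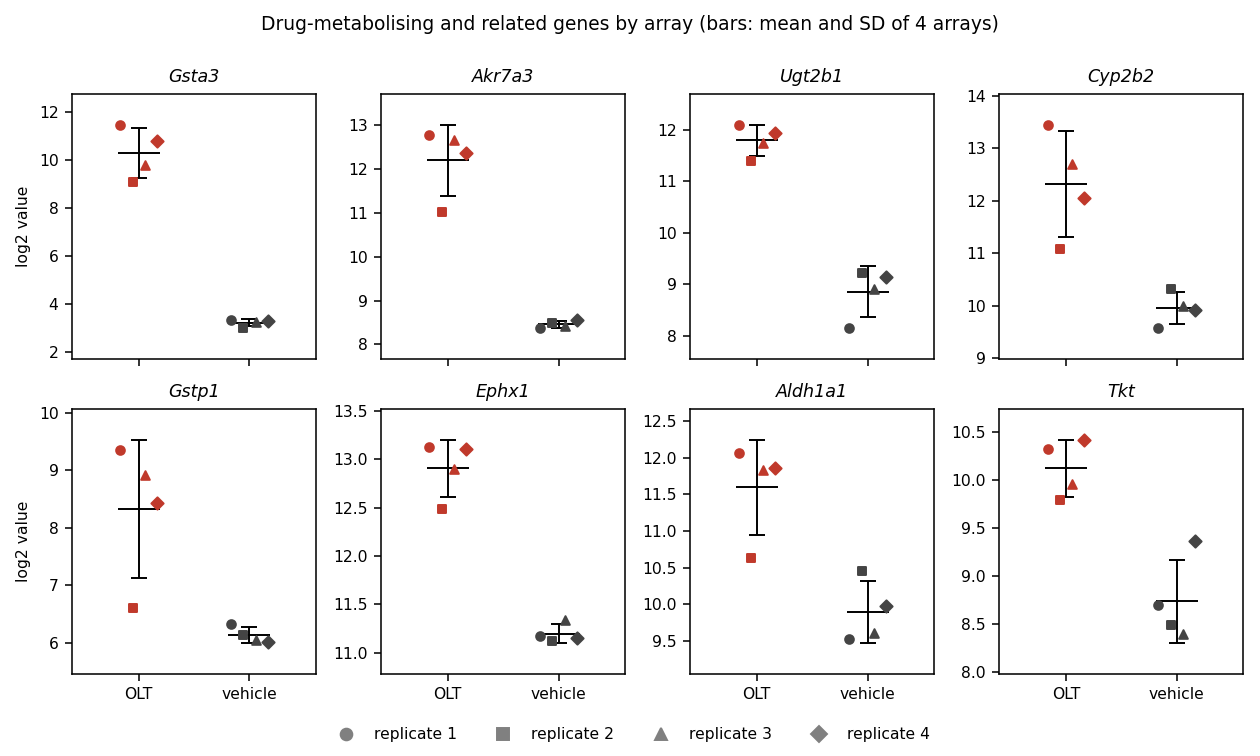
Log2 values of 8 genes of conjugation, aldehyde and NADPH metabolism, OLT left and vehicle right, with a marker for each replicate and black bars for the mean and SD of 4 arrays. For each gene all OLT arrays lay above all vehicle arrays, and OLT replicate 2 was the lowest OLT array for each of them.

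Several targets of CAR and PXR rose. Of 18 tested, 7 rose and 2 fell, with a median of 0.46 (0.33 without OLT replicate 1), and 1 fell without any of OLT replicates 2, 3 and 4 and vehicle replicates 1, 2 and 4. The risers include Ephx1 and Aldh1a1, already counted above, and Ugt2b1, also counted under glucuronidation. They include Abcc2 too, which did not pass without OLT replicates 1, 2 or 4 or vehicle replicates 1, 2 or 3 (limma adjusted p up to 0.104). The glucuronosyltransferase Ugt2b1 read 12.10, 11.39, 11.75 and 11.95 with OLT, against 8.15, 9.22, 8.92 and 9.15 with vehicle (2.94 ± 0.28, adjusted p = 2.44e-05). The phenobarbital-inducible Cyp2b2 read 13.45, 11.07, 12.70 and 12.06 with OLT, against 9.57, 10.32, 10.00 and 9.91 with vehicle (2.37 ± 0.44, adjusted p = 0.00316). The groups of both genes did not overlap, and the OLT arrays of Cyp2b2 spread over more than 2 log2 units. Cyp2a1, a steroid 7-alpha hydroxylase, read 9.27, 8.25, 8.45 and 8.58 with OLT, against 7.03, 7.52, 7.50 and 7.52 with vehicle (1.24 ± 0.27, adjusted p = 0.00877). Cyp3a23-3a1, a PXR target, rose by 1.07 ± 0.18 (adjusted p = 0.0018), or by 0.65 with its probe sets averaged. Short probes can cross-hybridise between such close paralogs.

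Several genes that work beside these enzymes fell. The reductase Por, which passes electrons to every microsomal P450, read 9.27, 7.60, 7.67 and 8.08 with OLT, against 9.51, 9.65, 9.71 and 9.82 with vehicle (-1.52 ± 0.28, adjusted p = 0.00322). Each OLT array lay below each vehicle array, and OLT replicate 1, the array with the highest Cyp2b2, lay just under the lowest vehicle array. Alas1, the first enzyme of heme synthesis, read 10.22, 8.45, 8.97 and 8.67 with OLT, against 10.85, 10.79, 10.36 and 10.80 with vehicle. Its fall of 1.62 ± 0.44 (adjusted p = 0.0282) did not pass without OLT replicates 2, 3 or 4 or vehicle replicates 1, 2 or 4 (adjusted p up to 0.0884) or after centring (-1.60, adjusted p = 0.0693). Fmo1, a flavin monooxygenase that also oxidises drugs, read 9.91, 8.96, 8.18 and 10.05 with OLT, against 10.86, 11.37, 11.15 and 10.95 with vehicle (-1.80 ± 0.38, adjusted p = 0.00733). All 3 AhR targets tested were above 0 and 0 passed in limma (2 at an unadjusted p under 0.05), with a median of 0.77. Of 8 glucuronidation genes 4 rose and 0 fell, or 1 without OLT replicates 1 or 3. Of 10 sulfotransferases 0 rose and 2 fell, the hydroxysteroid sulfotransferases Sult2a1 and Sult2a2, and without OLT replicate 2 neither passed (highest adjusted p of any left-out array 0.067 and 0.0554). Among 23 other hepatic P450 genes 1 rose and 3 fell, and the rises were 0 without OLT replicate 4 or vehicle replicate 2 and 2 without vehicle replicate 3. The falls were led by the steroid hydroxylase Cyp17a1, which read 5.72, 6.09, 6.34 and 5.99 with OLT, against 8.47, 7.87, 8.45 and 9.10 with vehicle (-2.44 ± 0.28, adjusted p = 0.000121).

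The OLT arrays differed from each other in the size of some rises. Among the 20 called risers on the lists of glutathione transferases, aldehyde metabolism, glucuronidation and CAR and PXR targets, OLT replicate 1 was the highest OLT array for 14 and OLT replicate 2 the lowest for 14. Among all 81 rising genes replicate 1 was highest for 46.9% and replicate 2 lowest for 50.6%. Their median difference from the vehicle mean was nevertheless close on the 4 arrays, at 0.84, 0.72, 0.76 and 0.79 for replicates 1 to 4. With 1 array for each rat, differences between animals and between arrays cannot be told apart. Over all 3104 genes replicate 1 was the highest OLT array for 23.9% and replicate 2 the lowest for 20.3% and the highest for 48.8%. For Nqo1 and Gclc, which did not pass, replicates 1 and 2 were likewise the highest and the lowest OLT array. Replicate 1 is the OLT array that stands apart on the second component, and the part of that component in this order was not tested. Over the 277 falling genes, replicates 2 and 3 lay lowest, with median differences from the vehicle mean of -1.03 and -1.02, against -0.74 for replicate 1 and -0.84 for replicate 4. The vehicle arrays were also uneven there: vehicle replicate 1 was the lowest vehicle array for 61.7% of the falling genes, against 22.2% of all genes.

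**Figure D2:**
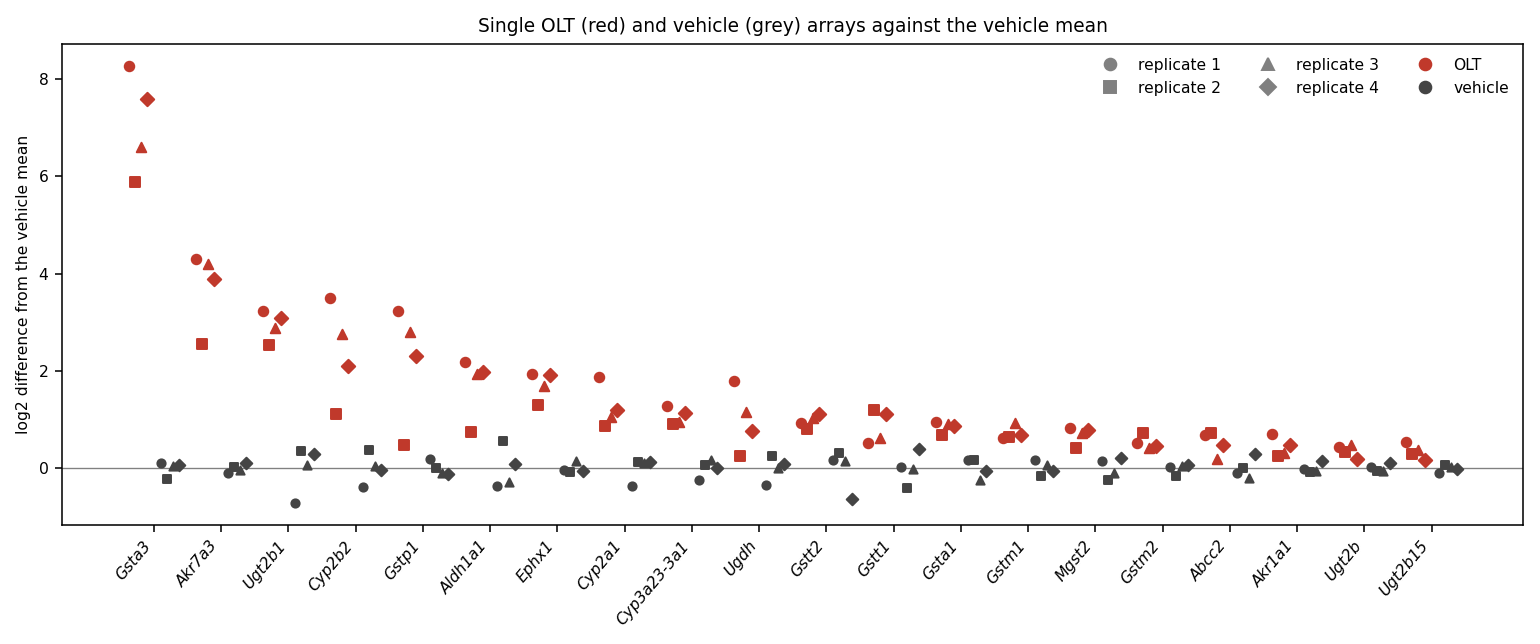
Difference of each OLT array (red, left) and each vehicle array (grey, right) from the vehicle mean, in log2 units, for the 20 called risers of the 4 drug metabolism lists, with a marker for each replicate. OLT replicate 1 was the highest OLT array for 14 of the 20 and OLT replicate 2 the lowest for 14.

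Sequence before the start sites of these genes is shown for the largest rises of the transferase, reductase and P450 families and for Per2, the gene with the smallest adjusted p among the clock genes described further on. Each run holds 250 bases before and 50 bases after the RefSeq start in build GRCr8, 5′ to 3′ along the gene, and capitals mark the matches to any of 6 motifs searched on both strands.
Gsta3 promoter, chr9:31154739-31155038, plus strand: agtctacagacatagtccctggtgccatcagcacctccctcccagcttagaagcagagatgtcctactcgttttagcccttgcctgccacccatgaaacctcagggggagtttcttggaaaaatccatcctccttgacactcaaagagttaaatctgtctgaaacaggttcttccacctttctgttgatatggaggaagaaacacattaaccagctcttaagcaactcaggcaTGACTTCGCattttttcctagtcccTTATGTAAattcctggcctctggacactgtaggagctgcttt
Gstp1 promoter, chr1:210769656-210769955, minus strand: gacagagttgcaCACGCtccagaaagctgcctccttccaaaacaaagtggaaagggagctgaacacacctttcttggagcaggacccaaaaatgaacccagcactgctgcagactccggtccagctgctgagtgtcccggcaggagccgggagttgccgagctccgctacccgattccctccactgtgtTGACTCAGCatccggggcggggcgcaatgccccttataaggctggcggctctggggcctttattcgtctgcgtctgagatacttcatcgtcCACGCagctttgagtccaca
Akr7a3 promoter, chr5:156876471-156876770, plus strand: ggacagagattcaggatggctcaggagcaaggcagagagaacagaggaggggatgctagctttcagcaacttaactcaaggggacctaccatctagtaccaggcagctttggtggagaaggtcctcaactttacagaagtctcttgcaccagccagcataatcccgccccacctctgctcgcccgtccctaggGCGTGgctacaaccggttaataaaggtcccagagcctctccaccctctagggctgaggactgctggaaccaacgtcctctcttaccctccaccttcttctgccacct
Cyp2b2 promoter, chr1:90722031-90722330, plus strand: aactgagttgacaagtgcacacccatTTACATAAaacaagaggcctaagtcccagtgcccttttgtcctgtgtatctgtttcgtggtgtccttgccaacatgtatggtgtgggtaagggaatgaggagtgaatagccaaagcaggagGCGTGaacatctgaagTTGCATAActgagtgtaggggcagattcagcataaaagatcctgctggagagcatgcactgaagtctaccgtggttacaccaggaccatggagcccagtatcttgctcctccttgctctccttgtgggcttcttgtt
Per2 promoter, chr9:99496944-99497243, minus strand: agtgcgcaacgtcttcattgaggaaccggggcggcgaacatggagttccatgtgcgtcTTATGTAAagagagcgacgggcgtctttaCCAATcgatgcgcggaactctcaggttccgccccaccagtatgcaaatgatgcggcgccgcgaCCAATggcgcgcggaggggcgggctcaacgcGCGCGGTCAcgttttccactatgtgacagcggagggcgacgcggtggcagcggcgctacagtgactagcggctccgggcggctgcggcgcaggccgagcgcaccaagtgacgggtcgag
In the Gsta3 promoter the capitals are an antioxidant response core (TGACNNNGC) that begins 17 bases before the start and, past the start, a D-box (TTATGNAA). Gstp1 has an antioxidant response core 61 bases before the start and a dioxin response core (GCGTG) on either side of it. Akr7a3 has a dioxin response core, and Cyp2b2 has a dioxin response core and a pair of D-boxes. Per2 has a D-box, a pair of CCAAT boxes and, on the opposite strand, an antioxidant response core.

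A promoter was found for 2584 of the tested genes, among them 71 that rose and 235 that fell. The antioxidant response core was present in 21.1% of promoters of rising genes, in 18.3% of those of falling genes and in 15.5% of tested genes, against 12.2% of all 27457 promoters of the same length. Of 12 glutathione transferase promoters 5 held it, as did 4 of 12 on the cholesterol list, 1 of 6 clock and 1 of 16 CAR and PXR target promoters. Of the other motifs, the dioxin response core was in 31.1% and the CCAAT box in 37.7% of all promoters. The D-box was in 3.54%, the E-box (CACGTG) in 6.65% and a sterol response motif (TCACNCCAC) in 1.13%. In tested, rising and falling genes, in that order, the dioxin response core was in 45.3%, 39.4% and 50.6%. The CCAAT box was in 39.6%, 36.6% and 42.1% and the E-box in 8.59%, 14.1% and 8.51%. The D-box was in 2.52%, 8.45% (6 of 71) and 2.98%, and the sterol response motif in 0.658%, 1.41% and 0.851%. A match is a description of these letters and not a binding site.

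The list with the most falls was that of amino acid breakdown. Of 36 genes tested, 16 fell and 1 rose, with a median difference of -0.43. Ornithine aminotransferase Oat, which channels ornithine to glutamate, read 6.57, 8.14, 6.51 and 7.61 with OLT, against 10.05, 9.44, 10.02 and 9.98 with vehicle (-2.67 ± 0.49, adjusted p = 0.00279). The serine dehydratase Sds, which makes pyruvate from serine, read 9.17, 10.02, 9.99 and 8.15 with OLT, against 11.31, 11.64, 11.66 and 11.57 with vehicle (-2.21 ± 0.44, adjusted p = 0.00473). Both genes were lower on all 4 OLT arrays than on any vehicle array. The mitochondrial aminotransferase Agxt2 fell by 1.14 ± 0.18, the tryptophan dioxygenase Tdo2 by 0.86 ± 0.18 and the cysteine dioxygenase Cdo1 by 0.80 ± 0.11 (adjusted p = 0.00127, 0.00583 and 0.000419). Cdo1 was tight within groups, at 12.33 to 12.67 with OLT and 13.24 to 13.30 with vehicle. The tyrosine aminotransferase Tat, a glucocorticoid-induced gene, fell by 1.54 ± 0.39 (adjusted p = 0.0199). It did not pass without OLT replicates 2 or 3 or vehicle replicates 2 or 4 (adjusted p up to 0.0607) or after centring (-1.52, adjusted p = 0.0617). The count of 16 was 10 without OLT replicates 2 or 3 or vehicle replicates 2 or 4, and 7 after centring.

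Some genes of glucose production and glycogen fell. Of 21 tested 6 fell, 1 rose and 14 did not pass, with a median of -0.24 (-0.06 after quantile normalization), and 4 fell after centring. The cytosolic aspartate aminotransferase Got1 read 6.21, 6.02, 5.45 and 6.85 with OLT, against 8.28, 10.57, 9.21 and 10.00 with vehicle (-3.38 ± 0.57, adjusted p = 0.0018). Pyruvate carboxylase Pc, the entry step from pyruvate, read 8.86, 9.26, 8.61 and 9.83 with OLT, against 10.43, 10.79, 10.65 and 10.83 with vehicle (-1.54 ± 0.30, adjusted p = 0.00396). Pfkfb1, which makes and removes the glycolytic activator fructose 2,6-bisphosphate, fell by 2.10 ± 0.42, and the glucose transporter Slc2a2 by 1.19 ± 0.28 (adjusted p = 0.00515 and 0.0129). Averaging the probe sets of Pfkfb1 gave -1.50, and its other probe sets did not pass (-1.33 and -1.06, limma adjusted p = 0.123 for each). The glucagon receptor Gcgr read 6.53, 6.20, 6.30 and 6.35 with OLT, against 7.31, 7.34, 7.14 and 7.80 with vehicle (-1.05 ± 0.17, adjusted p = 0.00178). The one riser was the glucokinase regulator Gckr (1.06 ± 0.23, adjusted p = 0.00771), at 8.95 to 9.71 with OLT and 7.99 to 8.46 with vehicle. Phosphoenolpyruvate carboxykinase Pck1, the rate-setting enzyme, overlapped between groups, at 12.07, 11.93, 11.53 and 11.70 with OLT, against 12.26, 11.99, 12.31 and 12.24 with vehicle. Its difference of -0.39 ± 0.13 missed the threshold (adjusted p = 0.0597). It passed after quantile normalization (-0.41, adjusted p = 0.042) and without OLT replicate 1 and TBD replicate 4 (-0.48, adjusted p = 0.018). It also passed with the array weights, whose estimation did not converge (-0.61, adjusted p = 0.000377). Of 5 urea cycle genes 2 fell, and 0 without OLT replicate 3.

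Fatty acid oxidation and sterol genes held falls and single rises. Of 30 genes of fatty acid oxidation and PPAR-alpha targets 7 fell and 1 rose, with a median of -0.42. Scp2, a sterol carrier and peroxisomal thiolase, read 9.75, 9.71, 9.93 and 9.82 with OLT, against 10.48, 10.52, 10.58 and 10.53 with vehicle (-0.72 ± 0.10, adjusted p = 0.000605). Averaging the probe sets of Scp2 gave -0.56, and its other probe set alone did not pass (-0.41, limma adjusted p = 0.226). The peroxisomal lyase Hacl1 fell by 1.69 ± 0.38 and the acyl-CoA synthetase Acsl1 by 0.57 ± 0.12 (adjusted p = 0.0111 and 0.00596), the second by 0.31 with its probe sets averaged. Acaa1b, another peroxisomal thiolase, rose: it read 9.96, 8.33, 9.40 and 9.28 with OLT, against 7.34, 8.05, 7.72 and 8.19 with vehicle (1.42 ± 0.30, adjusted p = 0.00651). The 7 falls were 3 without vehicle replicates 2 or 4 and 3 after centring, and 12 without OLT replicate 1 and TBD replicate 4.

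Of 14 cholesterol synthesis genes 3 fell and 1 rose, with a median of -0.64. Squalene epoxidase Sqle read 3.69, 3.05, 3.02 and 3.12 with OLT, against 6.16, 8.10, 5.97 and 6.91 with vehicle (-3.56 ± 0.58, adjusted p = 0.00165). On 3 of the 4 OLT arrays it lay under the array median, so the size of its fall is poorly measured. Without OLT replicate 4 the falls numbered 5, and the single rise, of the squalene synthase Fdft1 (0.65 ± 0.19, adjusted p = 0.0366), was lost without OLT replicates 1, 2 or 4 or vehicle replicates 2, 3 or 4. Its brightest probe set alone rose: its other 3 probe sets read -0.03, -0.19 and -0.55 in the same comparison, and the 4 averaged gave -0.03 (adjusted p = 0.991). Of 20 genes that make or move bile acids 4 fell and 2 rose. Without OLT replicate 2 or vehicle replicate 4 the falls numbered 2, and without OLT replicate 4 or vehicle replicate 3 the rises numbered 0. The uptake transporter Slco1a1 read 7.32, 6.41, 6.98 and 6.49 with OLT, against 7.98, 8.78, 8.59 and 8.61 with vehicle (-1.69 ± 0.20, adjusted p = 0.000171). Fgfr4 fell by 1.23 ± 0.22 (adjusted p = 0.00257). Averaging its probe sets gave -0.88, and its other probe set alone did not pass (-0.53, limma adjusted p = 0.37). Fgfr4 is the receptor through which intestinal FGF15 restrains bile acid synthesis. Cyp7a1, the rate-limiting enzyme of that synthesis, spread from 4.99 to 8.44 with OLT and from 6.41 to 7.84 with vehicle, and did not pass (-0.56, adjusted p = 0.812). The hepatic lipase Lipc fell by 0.87 ± 0.13 (adjusted p = 0.00116), with 10.51 to 10.76 on OLT arrays and 11.48 to 11.75 on vehicle arrays.

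**Figure D3:**
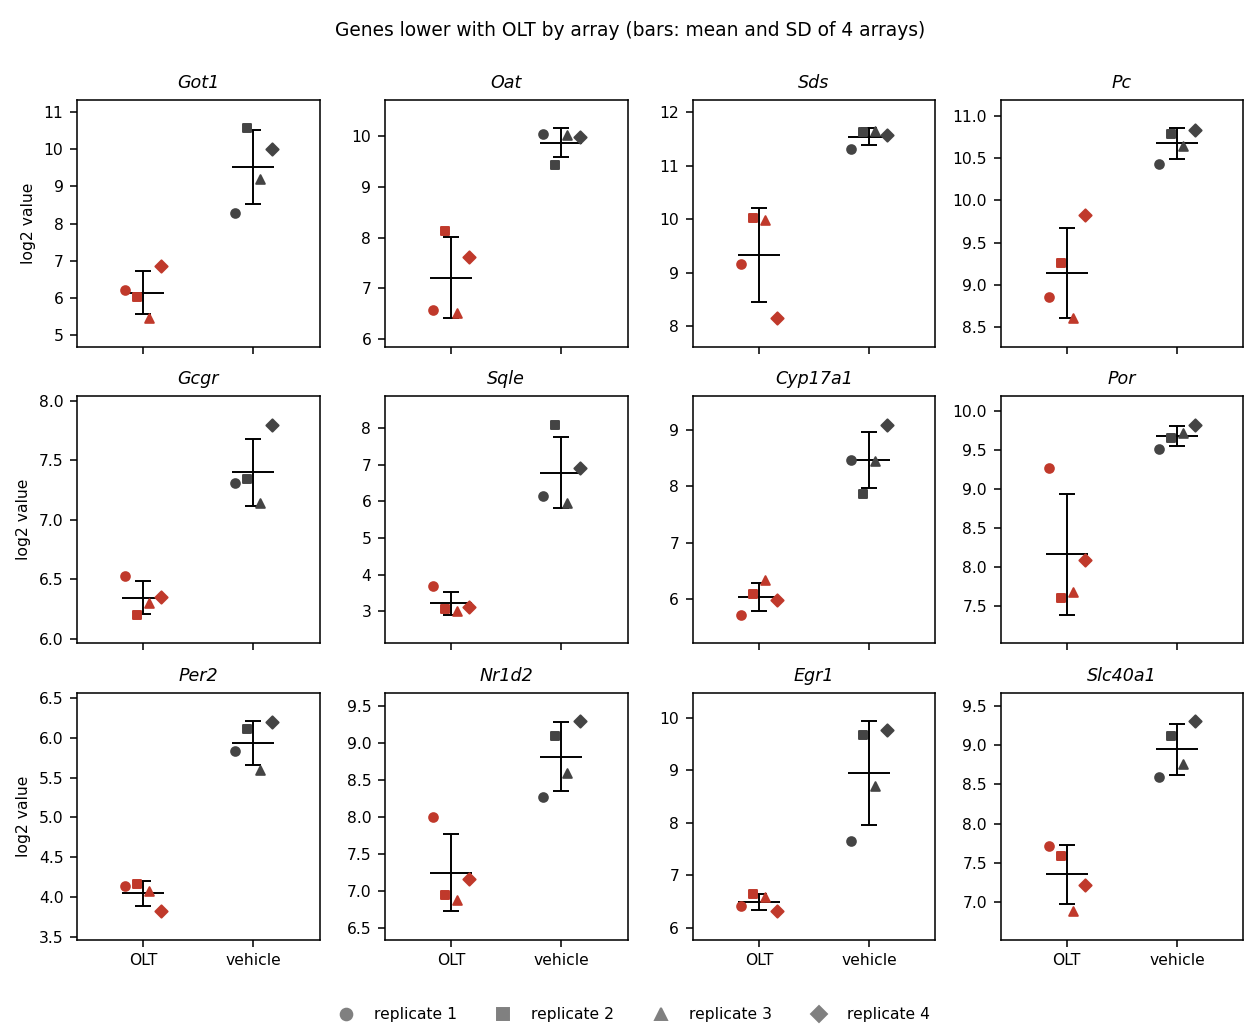
Log2 values of 12 genes that were lower with OLT, OLT left and vehicle right, with a marker for each replicate and black bars for the mean and SD of 4 arrays. For each of the 12 all OLT arrays lay below all vehicle arrays.

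Some clock genes and rapidly induced transcription factors fell with OLT. Per2, a repressor in the core clock, read 4.14, 4.16, 4.07 and 3.82 with OLT, against 5.83, 6.11, 5.59 and 6.20 with vehicle (-1.89 ± 0.13, adjusted p = 7.58e-07). The nuclear receptor Nr1d2, which represses clock genes, read 8.01, 6.95, 6.88 and 7.16 with OLT, against 8.27, 9.10, 8.60 and 9.30 with vehicle (-1.57 ± 0.28, adjusted p = 0.00238). Of 6 clock genes tested 2 fell and 0 rose. The hour of day at which each animal was killed is not given in the labels. Of 21 immediate early genes 4 fell and 0 rose, and each left-out array gave 4. Egr1, a zinc finger factor induced within minutes of stimulation, read 6.42, 6.64, 6.59 and 6.31 with OLT, against 7.65, 9.67, 8.71 and 9.77 with vehicle (-2.46 ± 0.42, adjusted p = 0.00202). The vehicle arrays spread over more than 2 log2 units while the OLT arrays lay close together. Averaging the probe sets of Egr1 gave -1.76, and its other probe set alone did not pass (-1.07, limma adjusted p = 0.117). The acute phase factor Cebpb fell by 1.31 ± 0.23, the glucocorticoid-responsive Klf9 by 1.29 ± 0.20 and Zfp36, which destabilises inflammatory mRNAs, by 1.05 ± 0.21 (adjusted p = 0.00217, 0.00116 and 0.0056), the last by 0.54 with its probe sets averaged. For Klf9 the average was -1.06, and its other probe set alone did not pass (-0.84, limma adjusted p = 0.147).

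Of 28 hepatocyte transcription factors and xenobiotic receptors 5 fell and 1 rose, and 3 fell without vehicle replicate 4 or after quantile normalization or centring. The zinc finger repressor Zfp354a read 7.57, 4.16, 5.89 and 4.42 with OLT, against 8.63, 9.41, 8.96 and 9.33 with vehicle (-3.57 ± 0.61, adjusted p = 0.0019). Nfia, a CCAAT-binding nuclear factor, read 6.18, 6.22, 6.11 and 6.18 with OLT, against 7.04, 7.85, 7.28 and 7.37 with vehicle (-1.22 ± 0.14, adjusted p = 0.000158). The transcripts of NRF2 and AhR themselves did not pass: Nfe2l2 differed by 0.31 and Ahr by -0.03 (adjusted p = 0.744 and 0.981), Ahr being below the array median on 3 OLT and 3 vehicle arrays. Among 14 heme and iron genes 4 fell and 0 rose. The iron exporter Slc40a1 (ferroportin), which macrophages carry in abundance, read 7.71, 7.59, 6.88 and 7.22 with OLT, against 8.60, 9.12, 8.76 and 9.31 with vehicle (-1.60 ± 0.22, adjusted p = 0.000437). It was the one of the 4 whose call each left-out array kept, and the count was 1 without OLT replicate 2 or vehicle replicate 2.

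Several macrophage genes fell in the OLT livers. Of 9 Kupffer cell and macrophage markers tested 4 fell and 0 rose, with a median over the list of -0.05, and the summed linear values of the list were 1553 to 2303 on the OLT arrays and 2672 to 3791 on the vehicle arrays. The other 5 did not pass, and 3 of them lay above 0, up to 0.89 for the endotoxin co-receptor Cd14 (adjusted p = 0.434). In whole liver, fewer macrophages and less RNA per macrophage cannot be told apart. Aif1, a macrophage calcium-binding protein, read 4.95, 4.51, 4.53 and 5.33 with OLT, against 6.63, 7.19, 6.88 and 7.34 with vehicle (-2.18 ± 0.20, adjusted p = 1.97e-05). Clec4f, a lectin of Kupffer cells, read 8.38, 8.25, 7.80 and 8.29 with OLT, against 9.09, 9.32, 9.08 and 9.95 with vehicle (-1.18 ± 0.20, adjusted p = 0.00205). The complement subunit C1qb, made by macrophages, fell by 0.81 ± 0.16 and properdin, Cfp, by 1.69 ± 0.25 (adjusted p = 0.00424 and 0.000996). The remaining falling marker of the list was the MHC class II invariant chain Cd74 (-1.12, adjusted p = 0.0239). It did not pass without OLT replicate 3 or vehicle replicate 4 (adjusted p = 0.0794 and 0.0789). The falling markers then numbered 3, as they did after centring or quantile normalization, and 1 rose without OLT replicate 3. Of 11 MHC genes 2 fell, the class II chains RT1-Bb (-1.51 ± 0.26, adjusted p = 0.00184; -0.88 with its probe sets averaged) and RT1-Da (-1.10 ± 0.26, adjusted p = 0.012). The part of the macrophage markers in the falls of Slc40a1, Cfp and the MHC genes was not tested. Of 8 hepatocyte, 8 endothelial, 4 bile duct, 6 lymphocyte and 3 red blood cell markers 0 passed in each list in limma, and 3, 3, 0, 1 and 0 in that order had an unadjusted p under 0.05. Of 11 stellate cell markers 2 fell, and 0 without OLT replicate 3 or vehicle replicate 4.

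Most members of the larger families did not pass. Over all tested genes, for comparison, 2.61% rose and 8.92% fell. Of 39 cytosolic ribosomal proteins 7 rose and 0 fell, with a median of 0.20, and leaving out each array in turn gave 7 or 8. The largest of these rises was that of Rps24 (2.93 ± 0.53, adjusted p = 0.00279), which lay under the array median on 2 vehicle arrays. Rpl6 read 10.56, 10.11, 10.41 and 10.51 with OLT, against 9.55, 9.52, 9.48 and 9.31 with vehicle (0.94 ± 0.12, adjusted p = 0.000319). Averaging the probe sets of Rpl6 gave 0.64, and its other probe set alone did not pass (0.35, limma adjusted p = 0.414). Rplp0, of the ribosomal stalk, rose by 0.66 ± 0.14 (adjusted p = 0.00651). Of 27 proteasome subunits 5 rose and 1 fell, but 1 rose without OLT replicate 1 or 4 and 1 after centring. Of 55 respiratory chain and ATP synthase subunits 1 rose and 5 fell, and 2 fell without OLT replicate 2 or vehicle replicate 3. After centring 1 rose and 1 fell, and after quantile normalization 3 rose and 3 fell. The riser, Cox6c, read 9.06, 11.67, 11.20 and 10.98 with OLT, against 8.28, 7.89, 8.13 and 5.19 with vehicle (3.35 ± 0.76, adjusted p = 0.0107). Vehicle replicate 4 was its low array, and without it the difference was 2.62. Of 57 plasma proteins 1 rose and 4 fell, 0 rose without OLT replicates 2 or 4 or vehicle replicate 2, and 0 fell after centring, while 7 rose without OLT replicate 1 and TBD replicate 4. Of 23 chaperones 1 rose and 2 fell, led by the mitochondrial chaperone Hspa9 (-0.93 ± 0.15, adjusted p = 0.00178). The rises ranged from 0 without OLT replicates 1, 2 or 4 or vehicle replicate 2 to 3 without vehicle replicate 4, and 4 fell without vehicle replicate 3. Averaging the probe sets of Hspa9 gave -0.71, and its other probe set alone did not pass (-0.50, limma adjusted p = 0.377). Of 20 cell cycle genes 0 rose and 1 fell, of 10 lipogenic genes 1 rose and 0 fell, and of 17 genes of the growth hormone and IGF axis 0 rose and 2 fell. None of these 4 calls held without each array in turn.

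Of the 358 called genes 236 were on none of the lists. Riboflavin kinase Rfk, which starts the synthesis of flavin cofactors, read 7.97, 7.44, 8.28 and 8.17 with OLT, against 5.23, 5.85, 5.71 and 4.28 with vehicle (2.70 ± 0.29, adjusted p = 8.04e-05). The ubiquitin ligase Nedd4 read 9.12, 7.60, 7.62 and 7.86 with OLT, against 5.61, 6.46, 5.83 and 6.44 with vehicle (1.96 ± 0.34, adjusted p = 0.002). The endosomal GTPase Rab14 rose by 1.81 ± 0.39 (adjusted p = 0.00801). All 3 were higher on every OLT array than on any vehicle array, with OLT replicate 1 highest for Nedd4 and Rab14. The interleukin-6 receptor Il6r, which brings the acute phase signal to hepatocytes, read 8.46, 7.58, 7.93 and 8.92 with OLT, against 10.18, 10.66, 10.11 and 10.49 with vehicle (-2.14 ± 0.24, adjusted p = 0.000107). The autophagy scaffold Wdfy3 read 5.68, 4.63, 5.14 and 5.06 with OLT, against 6.61, 8.45, 7.56 and 7.90 with vehicle (adjusted p = 0.000456). The splicing-associated Pnn fell by 2.04 ± 0.46 (adjusted p = 0.0102). All OLT arrays of these 3 genes lay below all vehicle arrays.

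**Figure D4:**
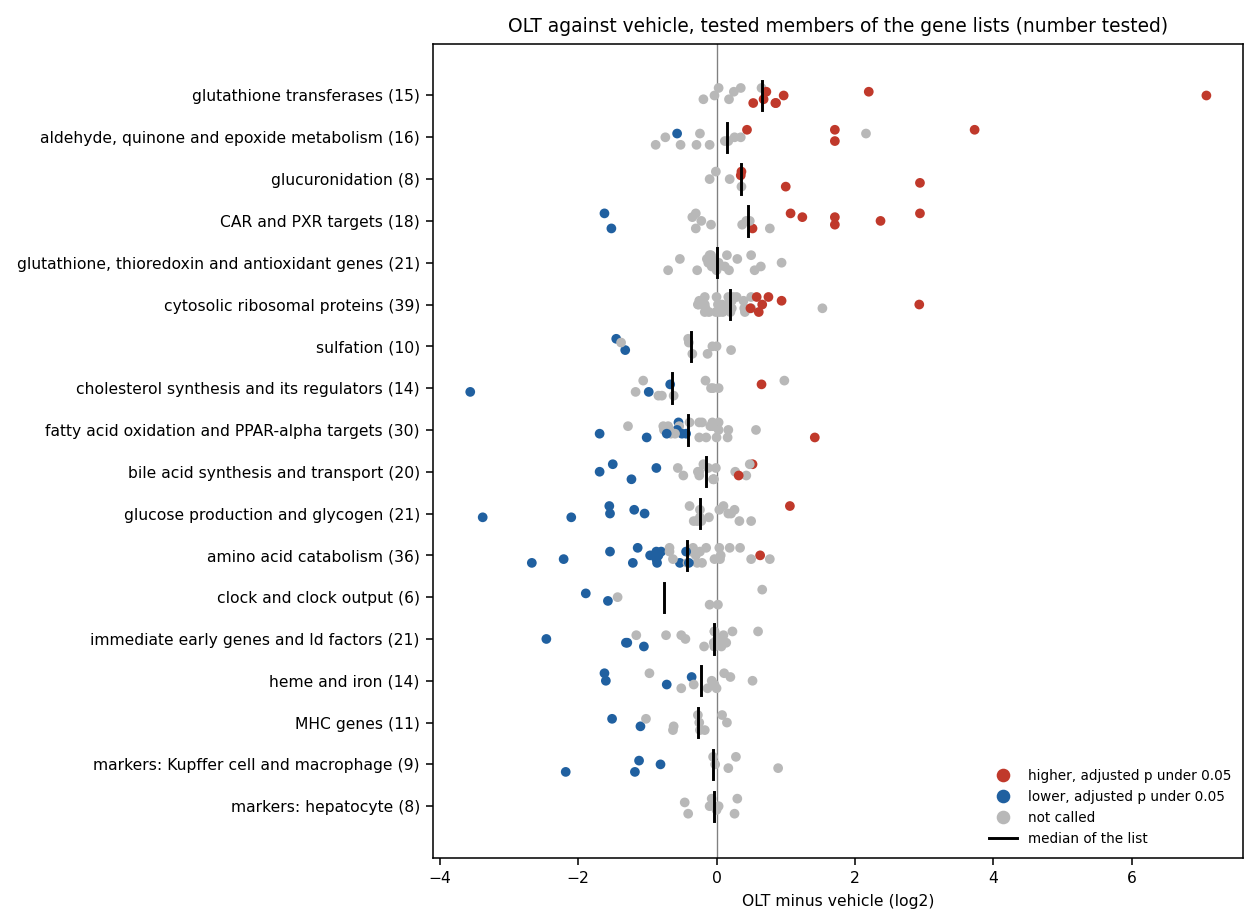
Differences between OLT and vehicle (log2, horizontal axis) of the tested members of 18 gene lists, with red points higher and blue points lower at adjusted p under 0.05, grey points not called and a black bar for the median. Glutathione transferases lay mostly right of 0 with a median of 0.65, and amino acid catabolism mostly left with a median of -0.43.

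OLT was last set beside the other dithiolethiones at the matched dose and time, D3T lacking both of its substituents and TBD bearing a tert-butyl group. The 2 pairs of compounds were each adjusted over all tested probe sets. Against D3T and TBD together, 14 probe sets passed, and by gene 3 were higher (0.0966%) and 1 lower (0.0322%) with OLT. Cyp1a2, the AhR-controlled P450 of caffeine metabolism, read 12.11, 11.77, 12.29 and 11.80 with OLT. It read 9.03, 9.58, 9.42 and 8.11 with D3T, 9.31, 9.36, 9.36 and 9.84 with TBD, and 11.65, 11.26, 11.37 and 10.65 with vehicle. Each OLT array was thus above each array of the other groups, and OLT exceeded the mean of D3T and TBD by 2.75 ± 0.24 (adjusted p = 4.14e-05). The difference from D3T was 2.96 ± 0.28 and from TBD 2.53 ± 0.28 (adjusted p = 6.68e-05 and 0.000728), and from vehicle 0.77 ± 0.28 (adjusted p = 0.0997). The last passed with its probe sets averaged (1.13, adjusted p = 0.025) and with the array weights, whose estimation did not converge (0.75, adjusted p = 0.044).

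The Cyp3a genes differed between OLT and D3T. Cyp3a2, the male-predominant member, read 13.54, 13.30, 13.29 and 13.44 with OLT, 11.14, 11.41, 10.77 and 10.64 with D3T, 12.83, 12.89, 13.60 and 13.28 with TBD, and 13.35, 13.95, 13.45 and 13.70 with vehicle. OLT was above D3T by 2.40 ± 0.19 (adjusted p = 1.23e-05) and differed from TBD by 0.24, with a 95% interval of -0.17 to 0.66. For Cyp3a23-3a1 the difference was 1.61 ± 0.18 from D3T (adjusted p = 0.000189) and 0.22, with an interval of -0.16 to 0.60, from TBD. Against both compounds together Cyp3a2 was higher by 1.32 ± 0.17 (adjusted p = 0.00186) and Cyp3a23-3a1 by 0.92 ± 0.15 (adjusted p = 0.0184). The second call was lost without OLT replicates 1 or 4 (adjusted p = 0.0883 and 0.0951), in a fit on the 12 compound arrays (0.103), with array weights (0.142), without OLT replicate 1 and TBD replicate 4 (0.0924) and after centring (0.0682).

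Gstp1 was lower with OLT than with the other compounds: D3T gave 12.36, 12.02, 12.57 and 13.10, and TBD 8.56, 10.69, 10.99 and 11.39. All D3T arrays and 3 of the 4 TBD arrays lay above the OLT arrays. The difference of -3.13 ± 0.51 from both together passed (adjusted p = 0.0166), but not without OLT replicate 4 (-3.17, adjusted p = 0.0824), in the fit on 12 arrays (0.103) or after centring (-3.08, adjusted p = 0.0646). From D3T alone OLT differed by -4.18 ± 0.59 (adjusted p = 0.00232), and from TBD by -2.08, with an interval of -3.33 to -0.82 and an adjusted p of 1. Ugt2b1 read 9.92, 9.22, 9.69 and 10.41 with D3T and 11.30, 11.71, 11.85 and 12.19 with TBD. OLT was above D3T by 1.99 ± 0.28 for this gene (adjusted p = 0.00232) and differed from TBD by 0.03, with an interval of -0.56 to 0.63. Between OLT and D3T 57 probe sets passed in all, and between OLT and TBD 3, all of them probe sets of Cyp1a2.

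**Figure D5:**
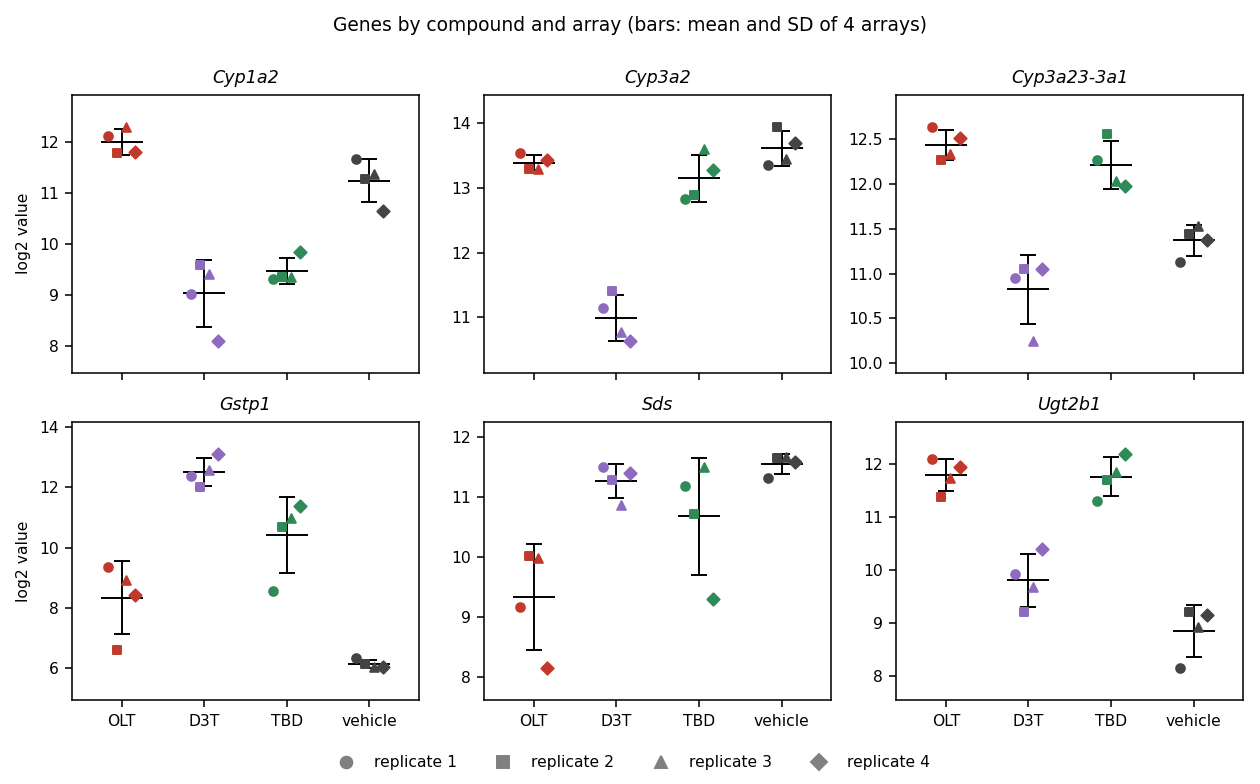
Log2 values of 6 genes with OLT, D3T, TBD and vehicle, with a marker for each replicate and black bars for the mean and SD of 4 arrays. The 4 OLT arrays of Cyp1a2 lie between 11.77 and 12.29, above all arrays of D3T, TBD and vehicle.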

How the data were processed

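The authors deposited log2 expression values of 8740 probe sets for 16 arrays, and per the submitters' processing notes they came from GCRMA (version not given in the sources used here), which corrects background by probe sequence, normalizes between arrays and summarises probes. The deposited log2 values ran from -1.21 to 15.9. Probe sets above the 40th percentile of their array on at least 4 of 16 arrays were tested (5323 of 8740, the other 3417 not). A group-means model on all 16 arrays was fitted with limma 3.58.1 in R 4.3.3 (lmFit and eBayes, two-sided, Benjamini-Hochberg over the tested probe sets, calls at adjusted p under 0.05), so that all groups share one estimate of the spread with 12 residual degrees of freedom. The procedure was tested on simulated data with independent noise and no array effects, so it was not tested for differences between arrays. The study text names 16 rats for the 16 arrays, and the labels name no shared batch or litter. The number of arrays limits the precision.

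Of the probe sets 7006 have 1 gene symbol in the platform annotation, 308 have several and 1426 none, and 6985 of the 7006 matched the GRCr8 gene table, which was used for names. A gene was read on the brightest of its tested probe sets by the mean of the 16 arrays, and 863 of 3104 genes have several. The members and gene lists were chosen with earlier results of these data known. Named by rule were the 12 largest non-overlapping rises and falls, up to 5 called members of each list by size, a fixed set of NRF2, CAR, PXR, AhR and metabolic genes, up to 8 genes each way for OLT against D3T and TBD, and cell markers. Of the 115 genes so named, mostly those whose call held under every alternative are described, a choice made after their values were seen, as were 17 further genes (Por, Cyp2a1, Gckr, Gstm1, Cdo1, Tdo2, Gcgr, Fmo1, Cfp and Lipc among those in the results), the genes plotted and the promoters shown. Keap1, Nr1i2 and Nr1i3 were not among the tested genes. Alternatives were other filters, normalizations and priors, array weights, a replicate block, fits on the compared arrays alone, averaged probe sets of a gene and leaving out arrays. Promoter sequences are from RefSeq, build GRCr8.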

Additional observations from a re-analysis of the deposited data

Results flagged for a closer look

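In 16 of 264 sets of 4 replicate values of the described genes, 1 array stood apart from the other 3 by Dixon's test at the 95% level, which chance alone does in about 1 in 20 sets. Of these 8 were OLT arrays and 8 vehicle arrays.

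Among OLT arrays, replicate 1 was high for Nedd4 (9.12, the others 7.60 to 7.86), for Sqle (3.69, the others 3.02 to 3.12) and for the export pump Abcc3 (4.39, the others 3.35 to 3.52). Replicate 2 was low for Aldh1a1 (10.63, the others 11.83 to 12.07). Replicate 3 was low for the class II invariant chain Cd74 (7.90, the others 8.63 to 8.64). Replicate 4 was high for the sterol enzyme Lss (6.08, the others 5.82 to 5.84), for the growth factor binding protein Igfbp3 (6.79, the others 4.99 to 5.28) and for C4bpb (10.25, the others 9.55 to 9.65).

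Among vehicle arrays, replicate 1 was low for Cyp4f4 (10.42, the others 10.60 to 10.63), for the transcription factor Foxa3 (4.84, the others 5.75 to 5.85) and for Cyp2a1 (7.03, the others 7.50 to 7.52). Replicate 2 was low for Oat (9.44, the others 9.98 to 10.05). Replicate 3 was low for Alas1 (10.36, the others 10.79 to 10.85) and for Lss (6.14, the others 6.65 to 6.74). Replicate 4 was low for Cox6c (5.19, the others 7.89 to 8.28) and high for Lipc (11.75, the others 11.48 to 11.51).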

How the results depend on the processing

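The 600 probe sets called between OLT and vehicle became 1066 with array weights, whose estimation did not converge and gave vehicle replicate 3 a weight of 19.4, and 361 after centring on the median of all probe sets. They became 552 when arrays were centred on the tested probe sets, a setting added after seeing the data, and 422 to 693 when 1 array was left out. For OLT against D3T and TBD, the 14 became 5 on the 12 compound arrays, 6 after centring, 9 with no filter and 5 to 27 when 1 array was left out. For OLT against D3T, the 57 became 26 on the 12 compound arrays, 88 without OLT replicate 1 and TBD replicate 4, 171 with array weights, 92 after quantile normalization and 30 to 51 when 1 array was left out. For OLT against TBD the 3 became 3 to 6 when 1 array was left out. The smaller fits have fewer samples by construction, and otherwise the cause was not tested. The replicate numbers did not pair the arrays: deviations of same-numbered OLT and vehicle arrays correlated at -0.474, -0.424, 0.297 and 0.289, and with the number as a replicate block 526 probe sets were called between OLT and vehicle, and Alas1 (-1.62, limma adjusted p = 0.0536) was among the calls lost. Of the 101 named and called genes 59 kept their call without each array in turn and 42 lost it at least once. With probe sets averaged, the direction of Fdft1, a called rise of 0.65, turned to -0.03, and that of Gclm, which was not called, to -0.12. Directions also turned for 2 genes near 0. Hmox1 was 0.00 without OLT replicate 1 and TBD replicate 4, 0.10 centred on tested probe sets, 0.02 centred on all, 0.02 after quantile normalization and -0.05 to 0.02 when 1 array was left out. Ahr was 0.02 without OLT replicate 1 and TBD replicate 4, 0.07 centred on tested probe sets and -0.10 to 0.04 when 1 array was left out. Gsta3 with vehicle and Sqle with OLT lay under their array medians, which limits the precision of their differences.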

Other observations

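Mif, a cytokine with tautomerase activity that hepatocytes also make, rose with little spread. It read 11.27, 11.09, 11.15 and 11.39 with OLT, against 9.46, 9.55, 9.53 and 9.62 with vehicle, a difference of 1.69 ± 0.11 (SE, limma adjusted p = 6.09e-07). It was higher on 4 of 4 OLT arrays than on any vehicle array. With the other compounds it read 11.61, 11.52, 11.66 and 11.67 (D3T) and 11.21, 11.33, 11.05 and 10.74 (TBD).

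Over all tested genes 8.92% fell and 2.61% rose with OLT. Of 15 complement components and regulators, a family chosen after its values were seen, 7 fell and 0 rose, with a median difference of -0.32. The 7 were C1qb, C1r, C1s, C4bpb, Cfd, Cfp and Mbl1. The serine protease C1s, which hepatocytes make, read 9.82, 9.84, 9.90 and 9.96 with OLT, against 10.53, 10.86, 10.51 and 11.10 with vehicle (-0.87 ± 0.16, limma adjusted p = 0.00357). C4bpb, a chain of the inhibitor C4b-binding protein, fell by 1.24 ± 0.29 (limma adjusted p = 0.012). C1qb and Cfp are expressed by macrophages, of whose 9 markers 4 fell, and the part of the markers in this count was not tested.

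Of 10 DEAD and DEAH box RNA helicases, also chosen after their values were seen, 5 fell and 1 rose (all tested genes 8.92% and 2.61%). Ddx3x read 9.38, 9.06, 8.60 and 9.27 with OLT, against 9.79, 10.71, 10.20 and 10.51 with vehicle (-1.22 ± 0.21, limma adjusted p = 0.00194). Dhx36, which unwinds G-quadruplexes, was the one that rose. It read 5.29, 4.34, 4.78 and 4.95 with OLT, against 4.16, 3.68, 3.96 and 3.86 with vehicle (0.93 ± 0.16, limma adjusted p = 0.0019), or a difference of 0.47 over the mean of its probe sets. Ddx21 fell by 1.65 (limma adjusted p = 0.0134), and did not pass when fitted on the 8 arrays alone (adjusted p = 0.0622). Other families looked at in the same way had smaller shares of falls. Among them 2 of 9 heterogeneous nuclear ribonucleoproteins, 1 of 4 RNA-binding motif and SR splicing proteins and 2 of 21 translation initiation factors fell. Of 20 Rab GTPases 2 fell and 1 rose, and of 6 Slc2, Slc7 and Slc38 transporters 1 fell.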
